A study of Homo sapiens with 17 samples.

Results

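The metallothionein genes described here are MT1E, MT1F, MT1G, MT1M, MT1X and MT2A, picked out of the table by their symbols. These 6 genes were among 58870 in the table, and 4 of them (MT1E, MT1F, MT1X and MT2A) were among the 15365 genes with enough counts to be tested. RNA came from the established line MDA-MB-231, which derives from a human triple-negative breast tumour and is labelled as mesenchymal and basal B. The cells were grown in RPMI with serum and given 45 nM TRAIL, a ligand of death receptors of the TNF receptor family, at a dose the submitters call suboptimal. The 6 groups were 0, 1, 3, 6, 12 and 24 h with TRAIL, with 3 libraries each except 2 at 1 h, 17 libraries in all. All of them, 0 h included, carry the same TRAIL label, and none of the later libraries is labelled untreated, so effects of TRAIL and of time in culture or handling cannot be told apart. The results are of 1 line, and the labels do not say whether replicates came from separate cultures, so p-values measure the spread between these libraries, which may be technical. In bulk RNA, fewer cells that express a gene and less RNA per cell cannot be told apart.

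Metallothioneins are small cytosolic proteins, very rich in cysteine, that bind zinc and copper through their cysteine thiols and also bind cadmium. They are known as buffers of zinc, as scavengers of heavy metals and as targets of oxidants. Their best known regulator is MTF1, a zinc-finger transcription factor that senses zinc and binds metal response elements in metallothionein promoters, and MT2A and several MT1 genes are also known to respond to glucocorticoids.

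The coding sequences are shown because the genes are close copies of each other, which matters for how fragments could be assigned to them. They were read from the GENCODE 29 annotation on GRCh38, 5′ to 3′, with the cysteine codons (TGC and TGT) in capitals.
MT2A: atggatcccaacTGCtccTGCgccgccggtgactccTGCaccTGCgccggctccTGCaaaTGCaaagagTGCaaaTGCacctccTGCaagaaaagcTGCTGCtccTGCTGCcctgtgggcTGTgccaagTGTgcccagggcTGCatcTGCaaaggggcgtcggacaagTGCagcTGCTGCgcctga
MT1E: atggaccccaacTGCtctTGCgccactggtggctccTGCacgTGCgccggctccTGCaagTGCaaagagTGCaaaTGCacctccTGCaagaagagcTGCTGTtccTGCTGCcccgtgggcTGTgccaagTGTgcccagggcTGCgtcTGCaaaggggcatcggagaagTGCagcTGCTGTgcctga
MT1X: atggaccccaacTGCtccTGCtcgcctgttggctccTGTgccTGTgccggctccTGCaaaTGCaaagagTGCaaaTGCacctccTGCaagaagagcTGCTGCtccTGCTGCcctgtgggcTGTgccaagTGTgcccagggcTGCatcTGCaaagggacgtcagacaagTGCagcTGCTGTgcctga
MT1F: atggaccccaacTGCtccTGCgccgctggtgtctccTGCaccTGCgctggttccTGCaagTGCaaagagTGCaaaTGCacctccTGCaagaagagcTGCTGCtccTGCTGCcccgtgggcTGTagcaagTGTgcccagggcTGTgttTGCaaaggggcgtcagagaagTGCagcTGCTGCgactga
Each of the 4 had 186 coding bases, or 61 codons before the stop, of which 20 were cysteine codons, and these lay at the same 20 codon positions in every pair. MT1M also had 61 codons and MT1G had 62, again with 20 cysteine codons each. MT2A differed from MT1E at 14 of the 186 bases (92.5% identity) and from MT1X also at 14. MT1F and MT1X were the least alike of these 4, at 88.7% identity. The longest run of identical coding bases was 63 for MT2A with MT1X, 32 for MT2A with MT1E, and 96 for MT1G with MT1X. Despite this likeness, the expected counts of the 6 genes were whole numbers in all but 11 of their library values, and the largest part of a count that was not whole was 0.25. Fragments assigned wholly to a wrong copy would not show in that number, so values of single genes carry this limit.

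The 6 genes lie within 76.0 kb on the long arm of chromosome 16 (GENCODE 29, GRCh38), all annotated as protein coding. MT2A (chr16:56608199-56609497), MT1E (chr16:56625475-56627112), MT1M (chr16:56632233-56633986), MT1F (chr16:56657694-56660698) and MT1X (chr16:56682424-56684196) are on the plus strand. MT1G (chr16:56666731-56668065) is on the minus strand.

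Promoter sequence is shown because MTF1 sites are what this family is best known for. RefSeq promoters (GRCh38.p14) were matched for 2 of the 6 genes, MT2A and MT1X. The metal response element core was searched as TGCACNC or TGCGCNC on both strands in the 250 bases before the start. Capitals mark the matches, and those read on the minus strand appear as the reverse complement of the core. From MT2A, 2 short windows are given, 168 to 140 and 67 to 41 bases before the start, and from MT1X the stretch from 250 to 47 bases before it, all on the plus strand. The MT2A windows lie inside the GENCODE gene span, since that annotation has a transcript that begins further upstream.
MT2A chr16:56608416-56608444: GTGTGCAgagccgggTGCGCCCggcccag
MT2A chr16:56608517-56608543: ggggcggggctttTGCACTCgtcccgg
MT1X chr16:56682220-56682423: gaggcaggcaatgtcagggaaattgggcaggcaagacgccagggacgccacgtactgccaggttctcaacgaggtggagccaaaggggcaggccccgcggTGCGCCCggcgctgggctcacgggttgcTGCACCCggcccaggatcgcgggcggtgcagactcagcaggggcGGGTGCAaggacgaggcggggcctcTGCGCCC
The core had 7 matches in the MT2A promoter and 4 in that of MT1X. Of 35116 promoters of the same length, 24.8% held at least 1 match, 0.37% held at least 4 and 0.0313% held at least 7. An NF-kB pattern, GGGNNNNNCC on both strands, had 3 matches in MT2A and 4 in MT1X, and 54.4% of promoters held at least 1, 22.2% at least 3 and 13.7% at least 4. The antioxidant element core, TGACNNNGC or TGAGNNNGC on both strands, had 1 match in MT2A and 2 in MT1X, against 23.9% of promoters with at least 1 and 3.53% with at least 2. These matches describe letters, and binding was not measured.

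Levels are given as CPM, the usual depth-scaled count unit, relative to the TMM-scaled library total. MT2A, the most widely expressed human metallothionein, had 5452 to 10019 counts per library and a mean of 488 CPM, which ranked 284 of the 15365 tested genes. MT1E followed with 1217 to 2236 counts and a mean of 119 CPM, MT1X with 224 to 414 counts and 21.3 CPM, and MT1F with 15 to 64 counts and 2.63 CPM. MT1M, at 1 to 12 counts, and MT1G, at 0 to 1, were too low to be tested. Per kilobase of median transcript length the order was the same, with means of 714 CPM per kb for MT2A, 169 for MT1E, 43.1 for MT1X, 4.75 for MT1F and 0.472 for MT1M. In each library the levels kept this order from MT2A to MT1F without overlap between neighbours. MT2A made up 75.0 to 79.4% of the summed level of the 6 genes in single libraries, and MT1E 18.9%, MT1X 3.37% and MT1F 0.416% of it over all libraries.

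**Figure D1:**
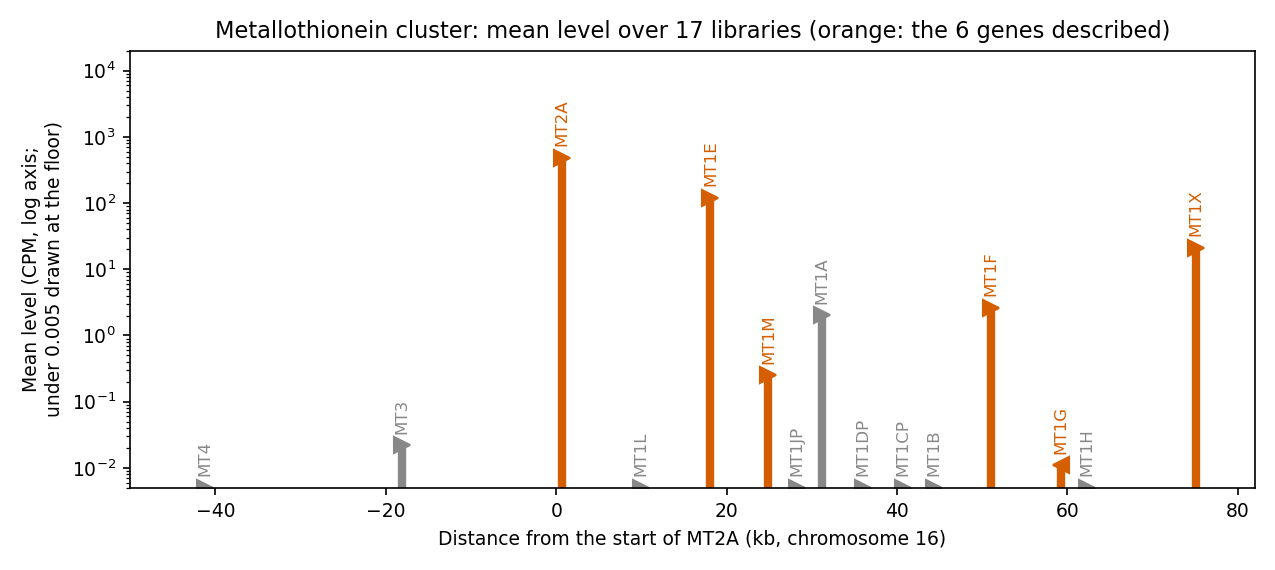
Mean level over the 17 libraries (CPM, log axis) of the metallothionein entries of the cluster against distance from the start of MT2A in kb. Orange marks the 6 genes described, grey the other entries, and arrowheads give the strand. MT2A (488 CPM), MT1E (119 CPM) and MT1X (21.3 CPM) stand above the others, and entries under 0.005 CPM are drawn at the floor of the axis.

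Over the time course the summed level of the 6 genes was highest at 3 h and lowest at 24 h. The mean sum was 604 ± 47.7 CPM in the 0 h libraries and 678 ± 47.7 in the 1 h libraries (SD, n = 3 and n = 2). The 3 h libraries had 819 ± 95.4, the 6 h libraries 555 ± 45.1, the 12 h libraries 664 ± 104 and the 24 h libraries 485 ± 52.7 CPM (SD, n = 3 each). Relative to 0 h this was 1.36-fold at 3 h and 0.802-fold at 24 h. The 3 h libraries, from 725 to 916 CPM, lay above all 0 h libraries, from 553 to 647 CPM, and the 24 h libraries, from 447 to 545 CPM, lay below them. In the F-test over all times, edgeR's quasi-likelihood test with Benjamini-Hochberg adjustment over all tested genes called 4 of 4 tested genes, with adjusted p of 6.8e-04 for MT2A, 1.6e-04 for MT1E, 1.3e-04 for MT1X and 3.0e-04 for MT1F. It called 64.2% of all genes as well. Adjusted p-values below come from the same edgeR fit, and comparisons against 0 h share the same 3 libraries.

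In the 0 h libraries MT2A read 497, 460 and 424 CPM, in the 1 h libraries 495 and 547, and in the 3 h libraries 631, 708 and 544. The 6 h libraries gave 469, 416 and 403 CPM, the 12 h libraries 577, 430 and 556, and the 24 h libraries 427, 351 and 364. The 3 h libraries lay above all 0 h and all 6 h libraries, the 12 h libraries were widely spread with replicate 2 low, and 24 h overlapped 0 h by 1 library. MT2A rose at 3 h by a log2 fold change of 0.45 (SE 0.114, adjusted p = 0.0134) and fell from 3 h to 6 h, by 0.55 on the log2 scale (SE 0.114, adjusted p = 0.00118). It was again lower at 24 h than at 12 h, with a log2 fold change of -0.45 (adjusted p = 0.0187). Against 0 h its log2 fold change was -0.27 at 24 h (SE 0.114, adjusted p = 0.0722), short of the threshold. DESeq2 did call it (adjusted p = 0.0414), as did edgeR on the compared groups alone (0.0157) or with no filter (5.3e-04), and limma-voom did not (0.077).

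MT1E, an MT1 copy of the same 61-codon form, read 123, 124 and 108 CPM in the 0 h libraries, 125 and 136 in the 1 h libraries, and 152, 171 and 150 in the 3 h libraries. The 6 h libraries gave 114, 103 and 95.0 CPM, the 12 h libraries 143, 99.1 and 124, and the 24 h libraries 97.5, 80.7 and 81.2. Its 3 h libraries were above and its 24 h libraries below all those at 0 h. MT1E rose at 3 h, with a log2 fold change of 0.42 (SE 0.112, adjusted p = 0.0176). It fell between 3 h and 6 h by 0.60 on the log2 scale (adjusted p = 5.4e-04), and at 24 h it was below 0 h, with a log2 fold change of -0.45 (SE 0.114, adjusted p = 0.00634).

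MT1X, the copy farthest from MT2A in the cluster, read 22.9, 24.7 and 17.3 CPM in the 0 h libraries, 21.2 and 25.3 in the 1 h libraries, and 30.0, 32.1 and 27.2 in the 3 h libraries. The 6 h libraries gave 19.7, 19.4 and 18.0 CPM, the 12 h libraries 21.8, 16.7 and 18.3, and the 24 h libraries 17.7, 13.9 and 15.8. Replicate 3 at 0 h was low, so that 24 h overlapped 0 h, while 3 h overlapped neither 0 h nor 6 h. MT1X rose at 3 h, with a log2 fold change of 0.46 (SE 0.124, adjusted p = 0.0152), and fell by 0.65 on the log2 scale from 3 h to 6 h (adjusted p = 5.1e-04). At 24 h its log2 fold change against 0 h was -0.45 (SE 0.129, adjusted p = 0.0114). That call was lost without 0 h replicate 1, 0 h replicate 2 or 24 h replicate 2, with adjusted p of 0.0526, 0.0681 and 0.0674. It was also lost with replicates 2 and 3 averaged at 6 h and 24 h (-0.42, adjusted p = 0.0549).

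MT1F had few counts, and no rise at 3 h was detected in it. Whether its time course differs from those of the other 3 genes was not tested. The 0 h libraries gave 3.42, 3.99 and 3.11 CPM, the 1 h libraries 3.54 and 3.60, and the 3 h libraries 3.19, 4.19 and 3.23. The 6 h libraries were lower, at 2.34, 2.26 and 1.62 CPM, as were the 12 h libraries, at 2.47, 1.56 and 1.67, and the 24 h libraries, at 1.99, 0.93 and 1.60. No library from 6 h on reached the lowest library of the first 3 time points. Against 0 h, its 3 h log2 fold change was 0.01 (SE 0.219, adjusted p = 0.984) and its 6 h value was -0.77 (SE 0.229, adjusted p = 0.0162). The 12 h value was -0.91 (SE 0.231, adjusted p = 0.0142) and the 24 h value -1.21 (SE 0.241, adjusted p = 9.4e-04). The 24 h level was thus 0.431-fold that at 0 h. The 6 h call was lost without 0 h replicate 2 (adjusted p = 0.0664) or 6 h replicate 3 (0.0978), and the 12 h call without 0 h replicate 2 (0.0689), 12 h replicate 2 (0.0874) or 12 h replicate 3 (0.0538).

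MT1M gave 12, 4 and 6 counts in the 0 h libraries, 2 and 3 in the 1 h libraries, and 1, 5 and 8 in the 3 h libraries. The 6 h libraries held 2, 3 and 4 of its counts, the 12 h libraries 2, 5 and 2, and the 24 h libraries 5, 2 and 1. Scaled to depth, 0 h ran from 0.249 to 0.747 CPM, above the 1 h (0.127 to 0.20 CPM) and 6 h (0.126 to 0.216 CPM) libraries and overlapping the 3, 12 and 24 h libraries. The counts did not pass 12, and a fit without the filter gave a smallest adjusted p of 0.175, at 24 h. MT1G was at 0 in 14 of 17 libraries and did not pass 1 count, so differences in it were not detectable at this depth. A count of 0 allows up to 3 counts, which was 0.187 CPM in 0 h replicate 1, counting error only.

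**Figure D2:**
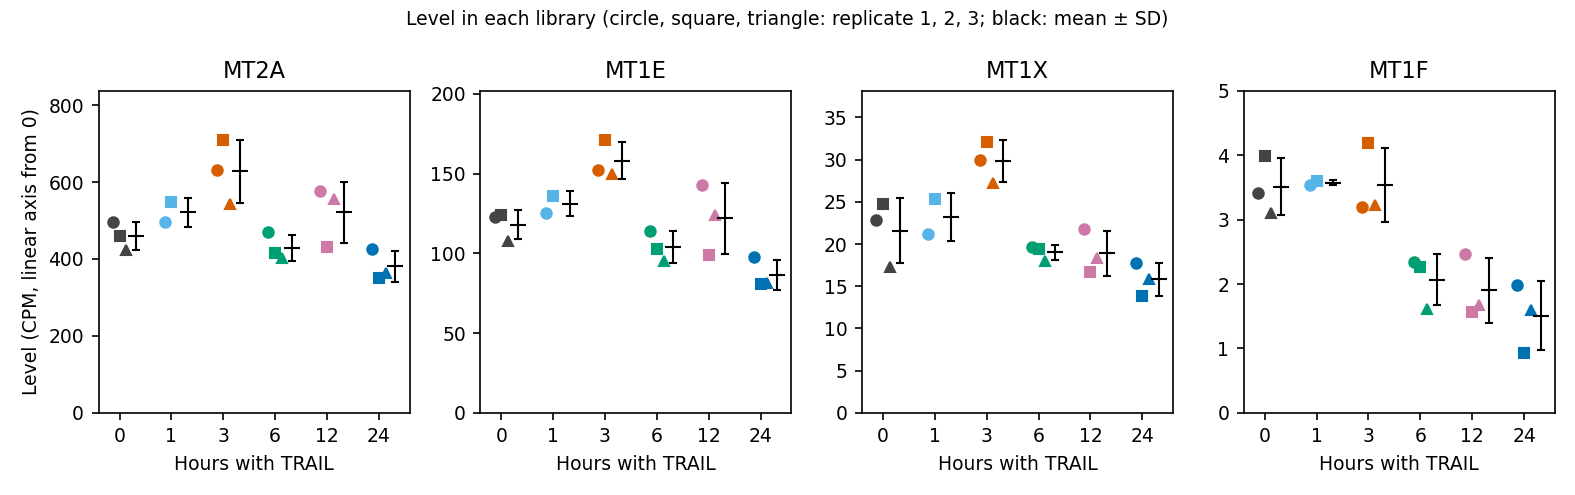
Level of the 4 tested genes in each library (CPM, linear axes from 0) by hours with TRAIL. Symbols give replicates and black bars the mean ± SD. MT2A, MT1E and MT1X are highest at 3 h, whereas MT1F stays near 3.5 CPM to 3 h and is at or below 2.47 CPM from 6 h.

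Counted by comparison, the 4 tested genes moved in steps. At 1 h, 0 of 4 were called by edgeR, DESeq2 or limma-voom, and 0 had an unadjusted p below 0.05. The test called 0.312% of all genes then, and 791 of the 15365 genes had an unadjusted p below 0.05. At 3 h, 3 of 4 were called as higher than at 0 h, against 9.04% of all genes. Without 0 h replicate 3 or without 3 h replicate 2, 0 of 4 were called, with adjusted p between 0.0703 and 0.0945 for MT2A, MT1E and MT1X. Over all genes those fits gave 1412 and 1569 calls in either direction, in place of 2727. Against 1 h, 3 h gave 0 of 4 calls by edgeR, DESeq2 and limma-voom, and edgeR called 5.73% of all genes. At an unadjusted p below 0.05 in edgeR there were 2 of 4, beside 3067 of the 15365 genes.

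The fall from 3 h to 6 h took in the whole tested group. All 4 tested genes were called as lower at 6 h than at 3 h, against 20.3% of all genes. In none of the 4 did the 3 h and 6 h libraries overlap, which describes these libraries only. The share of all genes without overlap was not counted, and edgeR called 6640 of 15365 genes in either direction between these times. MT1F fell there by 0.78 on the log2 scale (SE 0.234, adjusted p = 0.011), a call lost without 3 h replicate 2 (0.0636) or 6 h replicate 3 (0.0696). Against 0 h, 1 of 4 was called as lower at 6 h, MT1F, with 13.2% of all genes called as lower. The other log2 fold changes at 6 h were -0.10 for MT2A (adjusted p = 0.532), -0.19 for MT1E (0.229) and -0.19 for MT1X (0.275).

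At 12 h the genes were spread. Again 1 of 4, MT1F, was called as lower than at 0 h, and 6.48% of all genes were. MT2A stood at a log2 fold change of 0.18 (adjusted p = 0.332), MT1E at 0.05 (0.836) and MT1X at -0.20 (0.316). From 6 h to 12 h edgeR, DESeq2 and limma-voom called 0 of 4, and edgeR called 20.6% of all genes. At an unadjusted p below 0.05 in edgeR there was 1 of 4, beside 5253 of the 15365 genes. Without 12 h replicate 2, MT2A and MT1E were called as higher at 12 h than at 6 h, MT2A by 0.40 on the log2 scale (adjusted p = 0.0136) and MT1E by 0.36 (0.0166). That fit called 2616 of all genes in either direction, in place of 3168.

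At 24 h, 3 of 4 were called as lower than at 0 h (MT1E, MT1X and MT1F), against 17.1% of all genes. DESeq2 called 4 of 4 and limma-voom 3 of 4. In either direction they called 5073 and 5375 of all genes, where edgeR called 5388, and their shares of lower genes were not counted. Leaving out 1 library at a time gave 2 to 4 calls, beside 3444 to 5798 over all genes in either direction. From 12 h to 24 h, MT2A and MT1E were called as lower, 2 of 4, against 5.60% of all genes. The log2 fold change of MT1E was -0.49 (adjusted p = 0.0115), that of MT1X -0.25 (0.216) and that of MT1F -0.30 (0.47). These calls did not hold in all fits that left out 1 library. Without 12 h replicate 1, 24 h replicate 2 or 24 h replicate 3 there were 0 calls, and without 12 h replicate 3 there was 1. Over all genes those fits gave 583, 597, 668 and 1241 calls in place of 1847, so fewer calls were not particular to the members.

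Ratios within a library remove the scaling to the library total. Per 1000 MT2A counts, MT1E gave 257 ± 11.5 at 0 h, 253 ± 20.4 at 3 h and 227 ± 3.41 at 24 h (SD, n = 3 each). MT1X gave 46.8 ± 6.42 in the 0 h libraries, 47.6 ± 2.28 in the 3 h libraries, 36.5 ± 3.17 in the 12 h libraries and 41.5 ± 1.98 in the 24 h libraries. The ratio of MT1F to MT2A was 7.63 ± 0.923 for the 0 h libraries, 6.88 ± 0.413 for the 1 h libraries (n = 2) and 5.64 ± 0.502 for the 3 h libraries. It was 4.81 ± 0.722 for the 6 h, 3.63 ± 0.641 for the 12 h and 3.90 ± 1.10 for the 24 h libraries. MT1F libraries at 3 h, from 5.06 to 5.93, lay below those at 0 h, from 6.88 to 8.66, and those at 24 h ran from 2.65 to 4.66. The ratios were not tested.

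**Figure D3:**
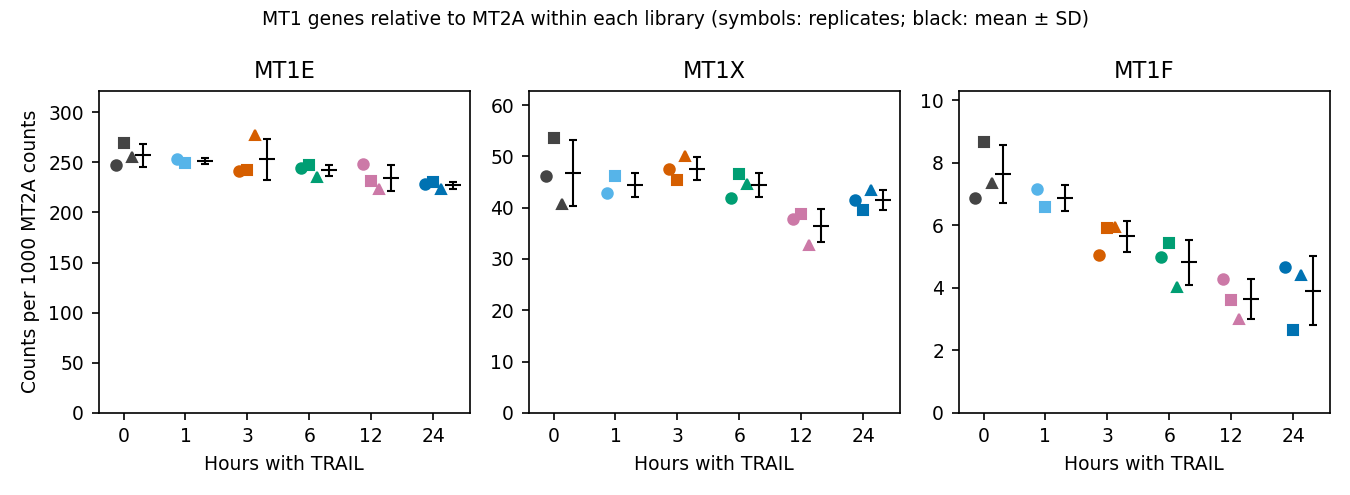
Counts of MT1E, MT1X and MT1F per 1000 MT2A counts in each library (linear axes from 0) by hours with TRAIL, with replicates as symbols and the mean ± SD in black. MT1F goes from 7.63 at 0 h to 3.63 at 12 h, while MT1E stays between 227 and 257 in its time means.

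Across the 17 libraries the log2 CPM of MT2A and MT1E went together with a Pearson r of 0.964 (Spearman's rho 0.941), and that of MT1E and MT1X with 0.924 (0.907). MT1F and MT2A were the least alike pair, at 0.671 (0.642). With each time's mean removed, r was 0.912 for MT2A with MT1E, 0.821 for MT1E with MT1X and 0.664 for MT1F with MT2A. These are descriptions over libraries of 6 times that share depth and library-wide trends.

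All 4 tested genes have short transcripts, and their levels moved with a library-wide trend on length. The median transcript was 683.5 nt for MT2A, 704 for MT1E, 494 for MT1X and 553 for MT1F, and between 2.13% (MT1X) and 12.9% (MT1E) of tested genes were shorter. The slope of log2 CPM on log2 transcript length, taken relative to the mean library, was lowest in 3 h replicate 2 (-0.0992) and highest in 24 h replicate 2 (0.0952). A negative slope means relatively more counts from short transcripts. The mean slope was -0.0274 ± 0.0166 for the 0 h and -0.0685 ± 0.0287 for the 3 h libraries. It was 0.0507 ± 0.0347 for the 6 h, 0.0134 ± 0.0374 for the 12 h and 0.0656 ± 0.0449 for the 24 h libraries (SD, n = 3 each). Over the 17 libraries the summed metallothionein level (log2) had a Pearson r of -0.899 with this slope (Spearman's rho -0.902), -0.845 without the 2 libraries farthest from the median slope, and -0.939 with each time's mean removed. The mitochondrial share of counts, 3.66 to 9.71%, had an r of 0.839 with the sum. At 12 h, replicate 2 had both the lowest MT2A level and the highest slope, 0.0551.

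**Figure D4:**
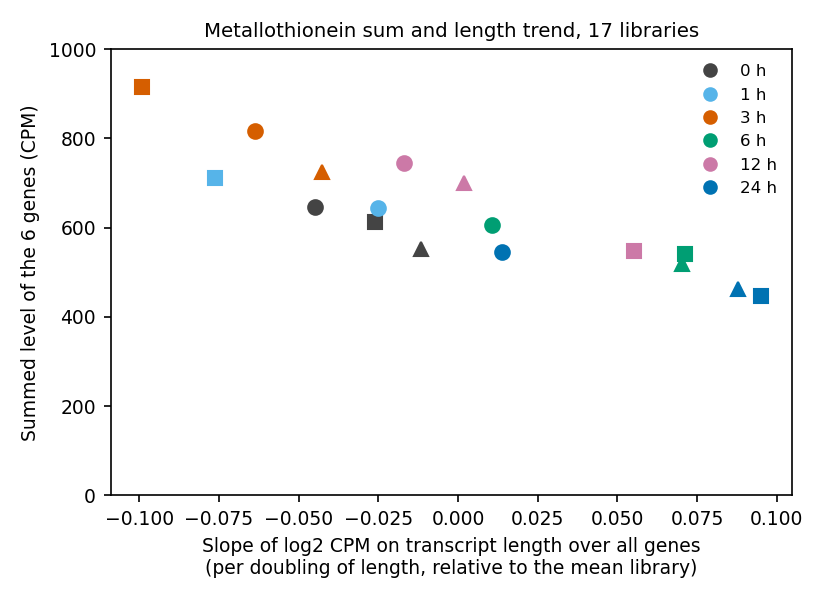
Summed level of the 6 genes (CPM, from 0) against the slope of log2 CPM on log2 transcript length in each of the 17 libraries, coloured by time, with replicates 1, 2 and 3 as circles, squares and triangles. Libraries with more negative slopes have higher sums, from 916 CPM in 3 h replicate 2 to 447 CPM in 24 h replicate 2.

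There were 2858 other tested genes of at most 800 nt. Their median log2 fold change relative to 0 h was 0.0719 after 3 h, -0.125 after 6 h, -0.0439 after 12 h and -0.115 after 24 h. At 3 h and 24 h this median had the sign of the changes in MT2A, MT1E and MT1X and was smaller in size, whereas at 12 h MT2A and MT1E had the other sign and at 6 h MT2A, at -0.10, changed less. From 3 h to 6 h it was -0.186, and 30.4% of them were called as lower. In a fit with an offset for each library's trend on length and GC content, the log2 fold change at 3 h was 0.38 for MT2A (adjusted p = 6.6e-04), 0.35 for MT1E (0.00865) and 0.34 for MT1X (0.00864). From 3 h to 6 h it was -0.34 for MT2A, -0.42 for MT1E, -0.40 for MT1X and -0.55 for MT1F, and all 4 stayed called. At 24 h MT1E (-0.33), MT1X (-0.27) and MT1F (-1.04) stayed called, whereas MT2A moved to -0.10 (adjusted p = 0.266). At 12 h MT2A became called as higher than at 0 h, at 0.28 (adjusted p = 0.0107).

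**Figure D5:**
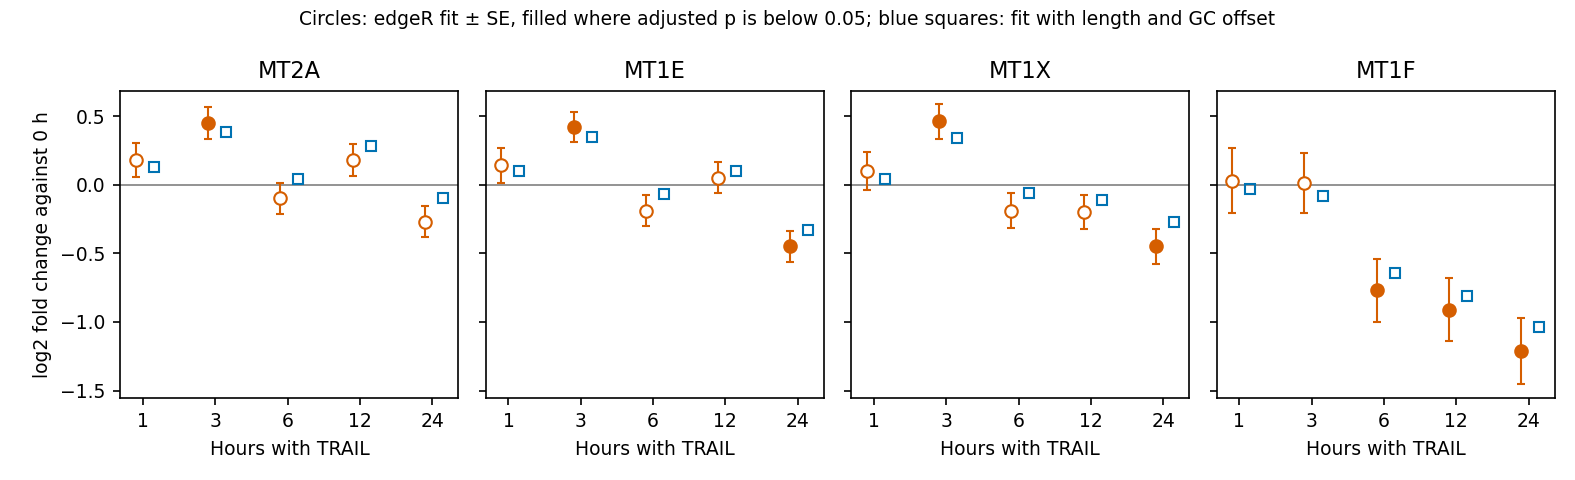
Log2 fold change against 0 h of the 4 tested genes by hours with TRAIL. Circles with SE are the edgeR fit, filled where the adjusted p is below 0.05, and blue squares the fit with an offset for length and GC content. At 3 h MT2A, MT1E and MT1X are called in both fits, and MT1F is called at 6, 12 and 24 h in both.

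The genes whose pattern was most like that of MT2A over the 17 libraries were, of 11326 candidates, MYL9 (r = 0.972), AC015813.2 (0.97), AC099518.5 (0.965) and POLR2J (0.954). The same 4 led for the summed level, but MT2A made up 75.0 to 79.4% of that sum, so this is not a second observation. The 17 libraries share the length trend, with whose slope MT2A had an r of -0.88. MYL9, a regulatory light chain of myosin, had 0, 12 and 24 h means of 160, 177 and 134 CPM, and POLR2J, a subunit of RNA polymerase II, had 87.1, 86.7 and 71.3.

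Of the other metallothionein entries, 14 were found in the table and 1, MT1A, was tested. MT1A had 13 to 42 counts and a level of 2.51 ± 0.0375 CPM at 0 h (SD, n = 3), and its 3, 6 and 24 h means were 2.03, 1.22 and 1.96 CPM. It fell at 6 h, with a log2 fold change of -1.03 (adjusted p = 0.00657), and its change at 3 h was -0.31 (0.426). MT1L, MT1JP, MT1CP, MT1H and MT4 had 0 counts in all libraries.

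MTF1, the metal-sensing activator of the family, was higher than at 0 h from 3 h on. It had 13.3 ± 0.596 CPM in the 0 h libraries, and its 3, 6, 12 and 24 h means were 17.3, 21.7, 17.8 and 19.6 CPM. Its 3 h log2 fold change was 0.37 (adjusted p = 0.0454), its 6 h value 0.70 (3.4e-04), its 12 h value 0.42 (0.0306) and its 24 h value 0.55 (0.00204). MTF2, a polycomb-associated protein with a similar name, rose at 6 h by 0.24 (0.034).

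Zinc transporters changed in both directions. In the F-test over all times, 7 of 8 tested exporters of the SLC30 family and 9 of 11 tested importers of the SLC39 family were called, against 64.2% of all genes. At 3 h, 2 exporters were called as lower and 0 as higher than at 0 h (8.71% and 9.04% of all genes), with a median log2 fold change of -0.33 over the 8 (-0.00407 over all genes). SLC30A1, the plasma membrane exporter ZnT1 and a known MTF1 target, read 39.9 ± 5.75 CPM in the 0 h libraries, and its 3, 6, 12 and 24 h means were 30.4, 51.2, 37.7 and 47.2 CPM. It fell at 3 h by 0.39 on the log2 scale (adjusted p = 0.0494) and rose at 6 h by 0.36 (0.0408). The mean metallothionein sum differed from 0 h with the opposite sign at both times. At 6 h, however, the sums overlapped those at 0 h (518 to 605 against 553 to 647 CPM). SLC30A9 fell at 3 h by 0.32 (0.0179), and SLC30A6 rose at 24 h by 0.37 (0.0148). SLC30A7 was called over all times (adjusted p = 0.00676).

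Of the importers, 4 were called as lower and 2 as higher after 3 h (8.71% and 9.04% of all genes), and 3 as lower and 5 as higher after 24 h (17.1% and 18.0%). SLC39A10 went from 42.4 CPM at 0 h to 24.0 at 3 h (log2 fold change -0.82, adjusted p = 0.00194) and 56.7 at 24 h (0.42, 0.03). SLC39A6 fell at 3 h (-0.48, 0.0185) and rose at 6 h (0.42, 0.0178). SLC39A14 rose at 6 h (0.47, 0.00306) and at 24 h (0.47, 0.00259). At 3 h and 24 h SLC39A4 had the signs of the metallothioneins, with a 0 h mean of 24.4 CPM, a 3 h mean of 33.9 (0.47, 0.0208) and a 24 h mean of 18.4 (-0.40, 0.0325). SLC39A13 was called in the same directions, at 3 h (0.22, 0.0465) and at 24 h (-0.22, 0.0288). The part of the length trend in these transporter values, in those of MT1A and MTF1 and in the gene lists below was not tested.

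All 8 copper genes were called over all times, against 64.2% of all genes. At 24 h, 3 were called as higher and 3 as lower than at 0 h, against 18.0% and 17.1% of all genes. ATOX1, a small copper chaperone, fell at 24 h by 0.48 (adjusted p = 0.00118), and COX17, a chaperone for cytochrome oxidase, rose at 3 h by 0.43 (0.0198) and fell at 24 h by 0.44 (0.00989). The copper importer SLC31A1 and its relative SLC31A2 rose at 24 h by 0.34 (0.0102) and 0.62 (9.7e-04).

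Glucocorticoids, oxidants and heat are other known inducers of metallothioneins. The glucocorticoid list held genes known as induced and also NR3C1, the gene of the receptor itself. All 8 of its tested genes were called over all times, against 64.2% of all genes. After 3 h, 2 were called as higher and 3 as lower (9.04% and 8.71% of all genes). SGK1, a kinase, rose at 3 h (0.68, adjusted p = 4.3e-06) and fell at 24 h (-0.83, 1.0e-06), CEBPD, a transcription factor, rose at 3 h (0.78, 7.6e-04), and DUSP1, a phosphatase, rose at 6 h (0.72, 2.7e-07) and fell at 24 h (-0.52, 2.2e-05). ERRFI1, a feedback inhibitor of EGFR, fell at 3 h (-0.18, 0.0228) and rose at 24 h (0.26, 0.00126). TSC22D3 fell more at 3 h (-0.71, 1.2e-04), as did KLF9 (-0.70, 0.0243), which was higher than at 0 h at 24 h (0.77, 0.00243). Of 7 oxidant-induced genes, 6 were called over all times (64.2% of all genes), with 0 higher and 2 lower at 3 h (9.04% and 8.71% of all genes). At 6 h, 3 of the 7 were called as higher and 1 as lower (16.9% and 13.2% of all genes). GCLM and GCLC, the subunits of the enzyme that starts glutathione synthesis, fell at 3 h by 0.27 (0.0404) and 0.46 (6.0e-04). GCLM was higher than at 0 h at 6 h (0.25, 0.0305) and 24 h (0.39, 0.00191). TXNRD1 and SRXN1, which act on thioredoxin and peroxiredoxins, rose at 6 h by 0.38 (0.00222) and 0.33 (5.9e-04).

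Of 5 heat shock genes, 4 were called over all times (64.2% of all genes) and 4 were called as higher at 6 h (16.9% of all genes). HSPA1B rose at 6 h from 184 to 376 CPM (1.03, adjusted p = 5.7e-09), HSPA1A by 0.62 (1.9e-06), HSPH1 by 0.54 (6.9e-06) and DNAJB1 by 0.49 (1.4e-06), at the time when the metallothioneins were lower than at 3 h. Of 8 tested neighbours of the cluster on chromosome 16, 7 were called over all times (64.2% of all genes). At 3 h, 0 were called as higher and 1 as lower (9.04% and 8.71% of all genes), HERPUD1 (-0.27, 0.00517). BBS2 fell at 6 h (-0.41, 0.00267), GNAO1 rose at 24 h (0.36, 0.0152) and NUP93 rose at 6 h (0.19, 0.0138).

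The 17 libraries held 13731497 to 19234939 counts, with scaling factors from 0.939 to 1.06. The line's defining genes VIM (3360 CPM at 0 h), CD44 (1320 CPM), AXL, CAV1 and FOSL1 were high, and ESR1, PGR and KRT5 had at most 2 counts in any library. CDH1 had 4 to 16 counts, and EPCAM, at 17.8 CPM at 0 h, was not absent.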

How the data were processed

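RNA of 17 libraries of MDA-MB-231 was measured. Per the labels' protocols, libraries were stranded, poly(A)-selected mRNA and paired-end. Per the submitters' processing notes, cutadapt 1.18, STAR 2.7.0f and the hg38 build were used. The authors deposited 1 table of expected counts per gene, made with RSEM according to its name. The RSEM version, the annotation and the strand setting are not given in the sources used here, so antisense and overlapping genes may share counts. Of the expected counts above 0, 30.6% were not whole.

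Expected counts were rounded. Low genes were removed with filterByExpr (edgeR 4.0.16 under R 4.3.3) and TMM factors scaled the libraries. A quasi-likelihood fit with a mean per time over all 17 libraries, robust, gave each later time against 0 h, 4 comparisons with the time before and an F-test over all times. A gene is called at a Benjamini-Hochberg adjusted p below 0.05 over 15365 genes. Where a sentence gives a log2 fold change and a number after it in brackets, the latter is that adjusted p. Log2 CPM used a prior count of 2. Total counts were 13731497 to 19234939, and the common biological coefficient of variation was 7.06%. On simulated counts for 24 h against 0 h (15016 genes, 200 changed), 68.4% of changes of 0.5 and 89.6% of changes of 1 (log2) were recovered.

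Lengths and GC content came from GENCODE 29 and were known for 15329 tested genes. The alternatives were other scaling, filters, DESeq2 1.42.0, limma 3.58.1, the replicate block, the compared groups alone, averaging, an offset for length and GC content and leaving out each library. Replicates 2 and 3 at 6 h and at 24 h were the most alike, but differed by more than sampling noise. The members and lists were chosen with earlier results of these data known. All 6 members are named, and of each list up to 4 called genes with the lowest p over all times. In the glucocorticoid list, TSC22D3 and KLF9 are named besides, as called at 3 h, and NR3C1 as the receptor gene. Among the importers, SLC39A13 is named besides, as called at 3 h and 24 h in the directions of SLC39A4. Of 91 list entries, 89 were matched.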

Additional observations from a re-analysis of the deposited data

How the results depend on the processing

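The count of called genes among the 4 tested stayed within 1.5 times for 1 h, 3 h, 6 h and 24 h against 0 h, 6 h against 3 h and all times under all alternatives to the full set of libraries. With the length and GC offset 2 were called at 12 h against 0 h, with or without the replicate block. Over all genes these fits gave 2283 and 2188 calls in place of 1911. For 3 h against 1 h, 2 were called with no filter and with offset and block together, beside 1219 and 1686 over all genes in place of 880. For 12 h against 6 h, 1 was called with upper-quartile scaling, with library size only and with the offset (with or without block), and 2 with no filter. Over all genes these fits gave 3288, 2972, 4017 (4170 with block) and 3308 calls in place of 3168. For 24 h against 12 h, 0 were called with replicates 2 and 3 averaged at 6 h and 24 h. Leaving out 1 library gave 0 to 3 calls at 3 h, 0 to 1 at 6 h, 0 to 1 at 12 h and 2 to 4 at 24 h against 0 h, 3 to 4 for 6 h against 3 h, 0 to 2 for 12 h against 6 h and 0 to 2 for 24 h against 12 h. Fewer libraries remain in those fits, and calls over all genes moved as well, at 3 h against 0 h between 1412 and 2903.

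Signs changed only in log2 fold changes that no fit called. MT1F at 1 h was -0.02 with library size only, -0.05 with the replicate block, -0.03 with the offset and -0.08 with both, and at 3 h -0.06 with library size only, -0.01 with no filter and -0.08 with the offset, with or without block. MT1F for 3 h against 1 h was 0.06 with the block. MT1X for 12 h against 6 h was 0.06 with upper-quartile scaling, 0.02 with library size only and 0.0082 with the compared groups alone. MT2A at 6 h was 0.04 with the offset, with or without block. Without single libraries, MT1E at 12 h ran from -0.09 to 0.18, MT1F from -0.05 to 0.13 at 1 h, from -0.13 to 0.11 at 3 h and from -0.15 to 0.05 for 3 h against 1 h, and MT1X from -0.03 to 0.23 at 1 h and from -0.13 to 0.07 for 12 h against 6 h. The cause was not tested.

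Whether replicate numbers pair the libraries was not settled. Of 40 same-numbered pairs, 19 had deviations correlated above 0.1. Their median r was 0.0493 (highest 0.522), and that of 80 different-numbered pairs was -0.0139. In all, 8 of 17 libraries were closest to their own number. The replicate block alone changed no member's call and gave 5459 calls over all genes at 24 h in place of 5388. With replicates 2 and 3 averaged, 24 h against 12 h gave 452 calls over all genes in place of 1847, 6 h against 0 h 2532 in place of 4627, 24 h against 0 h 3464 in place of 5388 and 12 h against 6 h 1670 in place of 3168. For 3 h against 1 h the offset gave 1526 in place of 880. Depth limits MT1F (15 to 64 counts), MT1M and MT1G.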
